A study of Homo sapiens with 41 samples.

Results

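H3122 is a human lung adenocarcinoma line whose growth is driven by EML4-ALK, a fusion of the receptor tyrosine kinase ALK to the EML4 protein, and crizotinib is a small-molecule inhibitor of the kinases ALK, MET and ROS1. All 4 H3122 libraries of the series' 41 are described here: 2 from cultures that received vehicle and 2 from cultures that received crizotinib at 0.3 µM for 48 h. They were taken by their labels, together with every gene in their table. The question of the series is what happens to gene expression in drug-sensitive cancer cells once the kinase that drives them is blocked. RNA of whole cells was sequenced with a kit that does not mark strand, and each gene has 1 normalised read count per library. Cells were plated in full growth medium, and the drug or vehicle came the next morning in medium with less serum, so both groups also went through that change. The model is limited to 1 established line, 1 dose and 1 time. The labels give no time for the vehicle cultures and do not say whether replicates were separate cultures, so p-values measure only the spread between these samples.

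ALK belongs to the insulin receptor superfamily, and in the fusion EML4 makes the kinase dimerise and signal without a ligand. Active ALK recruits adaptors such as SHC1, GRB2, FRS2 and IRS1, which feed the RAS-MAPK cascade and the PI3K-AKT pathway, and it also engages STAT3. ERK at the end of the MAPK cascade induces transcription factors of the ETS and AP-1 families, along with phosphatases (DUSP) and Sprouty proteins that damp the same cascade, so their transcripts are widely used as readouts of it. AKT keeps FOXO transcription factors out of the nucleus, and FOXO targets include receptor kinases and pro-death genes. In the lung, NKX2-1 is the lineage transcription factor of alveolar cells and of many adenocarcinomas.

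The libraries held 12765857 to 14858024 recovered reads each and detected 16921 to 17082 genes. Of 23368 genes in the table, 13959 had a mean of at least 10 normalised reads and were tested with limma on log2(value + 1). At a Benjamini-Hochberg adjusted p under 0.05, 6436 genes (46.1%) were called, 3086 higher (22.1%) and 3350 lower (24.0%) in crizotinib, the direction of every change below. The shares of 22.1% and 24.0% are the background for the counts of every list below, mixed lists included. A change of 2-fold or more was called higher for 832 genes (5.96%) and lower for 591 (4.23%). In 10277 of the 13959 tested genes the 2 groups did not overlap. A gap between groups, given for many genes below, is therefore common with 2 libraries each. The median log2 change of all tested genes was -0.01, and the median SE was 0.11. Scaling to total reads in place of the deposited size factors moved that median to 0.11 and turned the split of calls to 4240 higher and 2214 lower, so small changes are relative to the scaling. Where a list below has few calls in a direction, that count often moved by more than 1.5 times when 1 library was left out. Epithelial markers were present: KRT7, KRT8, KRT18, KRT19, EPCAM and CDH1 each had 4076 normalised reads or more in every library. NAPSA, another marker listed for the line, was low, with 13.8 and 12.7 in vehicle and 18.1 and 21.5 in crizotinib. The surfactant gene SFTPB had 6.89 and 9.78 normalised reads in vehicle and 2.01 and 2.05 in crizotinib and was not tested. PTPRC, the pan-leukocyte gene, had at most 2.05 normalised reads in any library. The leukocyte list had 18 markers, of which 4 were tested, and its summed level was 2039 to 2087 in vehicle and 826 to 917 in crizotinib. The actin regulators CORO1A and LCP1 made most of that sum, and the part of this list in other results was not tested. Fewer cells of a type and less RNA per cell cannot be told apart in these bulk libraries.

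Transcripts of the driver itself were lower. ALK had 611 and 568 normalised reads in vehicle and 422 and 431 in crizotinib, a log2 change of -0.47 ± 0.10 (SE here and below, n = 2 per group, limma adjusted p = 0.00224). Where a pair of values stands against another below, the first pair is from vehicle replicates 1 and 2 and the second from crizotinib replicates 1 and 2. EML4, whose promoter drives the fusion, had 6656 and 5949 in vehicle and 4623 and 5057 in crizotinib, a log2 change of -0.38 ± 0.09 (limma adjusted p = 0.00481), which was not called without crizotinib replicate 1 (-0.32, limma adjusted p = 0.115) or with quantile normalisation (-0.23, limma adjusted p = 0.0558). In both genes each crizotinib library lay below each vehicle library. The counts do not separate fused from unfused transcripts. Midkine (MDK), a proposed ALK ligand, had 5132 and 5900.2 against 6280.3 and 5814 and was not called (0.14 ± 0.09, limma adjusted p = 0.251), though it passed as higher with quantile (0.29, limma adjusted p = 0.0183) or total-count scaling (0.26, limma adjusted p = 0.0291). The ligand gene FAM150A (ALKAL1), 19.7 and 26.4 in vehicle and 19.1 and 21.5 in crizotinib, was not called either. Among 20 tested adaptors and effectors of ALK, 4 were called higher and 6 lower. GAB1, a docking protein for SHP2 and PI3K, rose from 118 and 112 to 248 and 280.0 normalised reads, a log2 change of 1.19 ± 0.13 (limma adjusted p = 2.38e-05). The other 9 called members changed by less than 0.6 on the log2 scale, among them SHC1 (-0.41 ± 0.08) and the PI3K subunit PIK3CB (-0.51 ± 0.11). Those small calls depended on the libraries: without crizotinib replicate 2 only 1 adaptor was called higher, without crizotinib replicate 1 or vehicle replicate 2 it was 2, and without crizotinib replicate 1 only 3 were called lower.

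The MAPK output genes fell almost as a block. Of 28 tested, 26 were called lower, 18 of them by 2-fold or more, and 1 was called higher. Their median log2 change was -1.58. DUSP6, the cytoplasmic ERK phosphatase, had 14461 and 14040.2 normalised reads in vehicle and 1996 and 2228 in crizotinib. The groups were far apart and each pair of libraries was tight, and the log2 change was -2.76 ± 0.09 (limma adjusted p = 1.3e-09). The nuclear phosphatase DUSP4 had 2751 and 2633 against 1363 and 1384, a smaller fall (-0.97 ± 0.08). ETV4 and ETV5, ETS factors that carry the ERK signal to promoters, fell by 1.73 and 1.65 on the log2 scale, and ETV1, of the same subfamily, had a change of -1.32 ± 0.11. The immediate-early zinc-finger gene EGR1 had 641 and 627 in vehicle and 153 and 149.8 in crizotinib (-2.06 ± 0.11), and EGR2 had 58.0 and 58.7 against 7.05 and 3.08 (-3.37 ± 0.37). All of these values were lower in each crizotinib library than in either vehicle library.

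Feedback and survival genes of the same list followed. SPRY4, a Sprouty brake on RAS signalling, had 1203 and 1138 normalised reads in vehicle and 170.2 and 219.5 in crizotinib (-2.59 ± 0.12, limma adjusted p = 2.4e-08). The related brakes SPRY1 (-1.09 ± 0.10), SPRY2 (-0.83 ± 0.09), SPRED1 (-0.44 ± 0.09) and SPRED2 (-0.46 ± 0.09) were called lower with smaller changes. IER3, an early-response survival gene, had 3120.1 and 3653 normalised reads in vehicle and 581 and 602 in crizotinib (-2.51 ± 0.09, limma adjusted p = 4.65e-09). PHLDA1, a pleckstrin-homology protein induced by receptor kinases, had 6232 and 6138 against 789 and 893 (-2.88 ± 0.09, limma adjusted p = 1.2e-09). The receptor kinase EPHA2, an ERK target, had 3743 and 3687 against 848 and 866 (-2.12 ± 0.08). None of these genes overlapped between groups. ERRFI1, the feedback inhibitor of EGFR known as MIG6, had 5655 and 5393 against 1880.0 and 2000.3 (-1.51 ± 0.08). CCND1, the cyclin that starts G1, had 47661 and 46344 against 19963 and 20943, a log2 change of -1.20 ± 0.09 (limma adjusted p = 1.26e-06). MYC went the other way: it had 2113 and 2246 in vehicle and 3477 and 3182 in crizotinib, higher in both crizotinib libraries, with a log2 change of 0.61 ± 0.08 (limma adjusted p = 0.000135). The potassium channel gene KCNN4 was the 1 member not called (699 and 759 in vehicle and 696 and 639 in crizotinib).

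**Figure D1:**
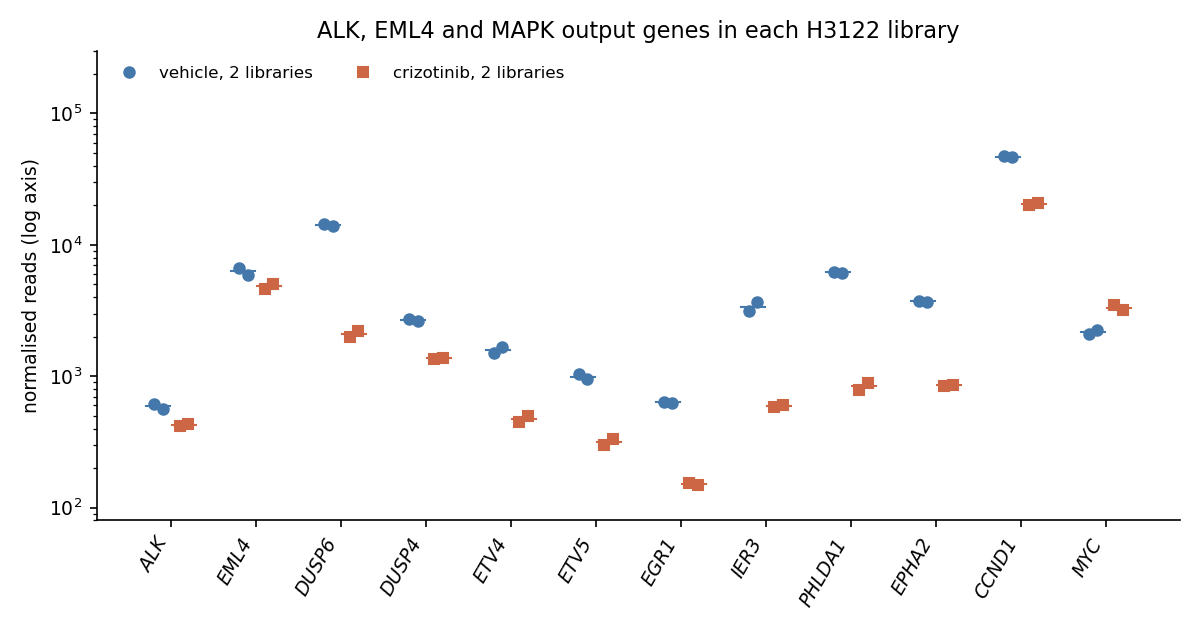
Normalised reads (log axis) of ALK, EML4 and 10 MAPK output genes in the 2 vehicle (circles) and 2 crizotinib (squares) libraries, with a bar at each group's mean. DUSP6 lies at 14040.2 or more in vehicle and at 2228 or less in crizotinib, while MYC is the 1 gene plotted that is higher in crizotinib.

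Of 12 tested AP-1 genes, 8 were called lower and 0 higher, with a median log2 change of -0.69. FOSL1, whose protein is stabilised and induced by ERK, had 203 and 212 normalised reads in vehicle and 28.2 and 32.8 in crizotinib (-2.73 ± 0.17, limma adjusted p = 2.23e-07). MAFF, a small MAF protein, changed by -2.18 ± 0.17, JUNB by -1.38 ± 0.08, and the stress-induced factor ATF3 by -1.70 ± 0.17. STAT3 outputs moved in both directions, with 5 of 16 called higher and 7 lower. LCN2, an iron-binding secreted protein of inflamed epithelium, had 115 and 156 against 37.3 and 14.4 (-2.48 ± 0.34, limma adjusted p = 0.000132), and its change was -3.13 or -1.82 without crizotinib replicate 1 or 2. BCL3, an NF-κB cofactor, changed by -2.06 ± 0.15, and OSMR, the oncostatin M receptor, by -1.34 ± 0.10. Those called higher included the repressor BCL6 (0.55 ± 0.09) and IRF1 (0.57 ± 0.11), though without crizotinib replicate 2 the number called higher was 3.

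Receptor tyrosine kinases split evenly: of 25 tested, 9 were called higher and 9 lower, against the background of 22.1% and 24.0%. Receptors called higher included ERBB2, ERBB3, IGF1R and INSR, whereas EGFR, of the ERBB family too, was called lower with values that overlapped. ERBB2 had 1705 and 1621 normalised reads in vehicle and 3005 and 2886 in crizotinib (0.82 ± 0.08, limma adjusted p = 9.06e-06). ERBB3, the kinase-impaired partner of ERBB2 that binds PI3K, had 3410.3 and 3174 against 5306 and 5420.2 (0.70 ± 0.08). IGF1R had 1769.6 and 1564 against 2574 and 2831 (0.70 ± 0.09), and INSR changed by 0.66 ± 0.14. For each of these receptors the groups did not overlap. FGFR2 (1.40 ± 0.23) and FGFR3 (0.68 ± 0.09) were called higher, and FGFR4 lower (-0.63 ± 0.14). KIT, the stem cell factor receptor, was nearly silent in vehicle, at 4.92 and 13.7 normalised reads, and reached 109 and 94.4 in crizotinib (3.46 ± 0.37, limma adjusted p = 1.71e-05). FLT1, a VEGF receptor, had 3.93 and 4.89 against 78.5 and 73.9 (3.84 ± 0.30, limma adjusted p = 1.43e-06). Both thus rested on small vehicle counts, and the change of KIT was 2.80 or 4.11 without vehicle replicate 1 or 2.

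Receptors of the HGF family fell. MET, itself a target of crizotinib, had 7048 and 6001 normalised reads in vehicle and 3457 and 3726 in crizotinib (-0.86 ± 0.09, limma adjusted p = 2.27e-05). MST1R, its relative for the ligand MSP, had 1181 and 1172 against 347 and 351 (-1.75 ± 0.09, limma adjusted p = 4.32e-08). The vehicle and crizotinib values of both were well separated. EPHA1 changed by -0.80 ± 0.10 and EPHA4 by -0.48 ± 0.12. EGFR had 1547 and 1065 against 807 and 1109, values that overlapped between groups, with an adjusted p from limma of 0.0488 that was lost in most other fits, including those without vehicle replicate 1 (-0.17, limma adjusted p = 0.144) and without crizotinib replicate 1 (-0.21, limma adjusted p = 0.331). AXL and MERTK, which share the ligand GAS6, were not called.

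The EGF-family ligands and their sheddases had 7 of 12 tested members called lower and 0 called higher, with a median log2 change of -0.51. HBEGF, a ligand of EGFR and ERBB4, had 34.4 and 32.3 normalised reads in vehicle and 10.1 and 19.5 in crizotinib (-1.19 ± 0.34, limma adjusted p = 0.013), not called without crizotinib replicate 1 (-0.75, limma adjusted p = 0.102). NRG1, the ERBB3 ligand, had 21.6 and 25.4 against 12.1 and 10.3 (-1.01 ± 0.33, limma adjusted p = 0.0246), not called without vehicle replicate 2 (-0.90, limma adjusted p = 0.103) or crizotinib replicate 2 (-0.90, limma adjusted p = 0.0877). The groups did not overlap in either gene. AREG, an EGFR ligand, had 21.6 and 18.6 in vehicle and 1.01 and 0 in crizotinib, where 3 reads are worth about 3, so its fold is not given. RHBDF2, the iRhom partner of the sheddase ADAM17, had 438 and 418 against 275 and 283 and was called lower (-0.61 ± 0.10, limma adjusted p = 0.000577). With a minimum mean of 50, the ligands and sheddases called lower were 4, since fewer were tested.

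**Figure D2:**
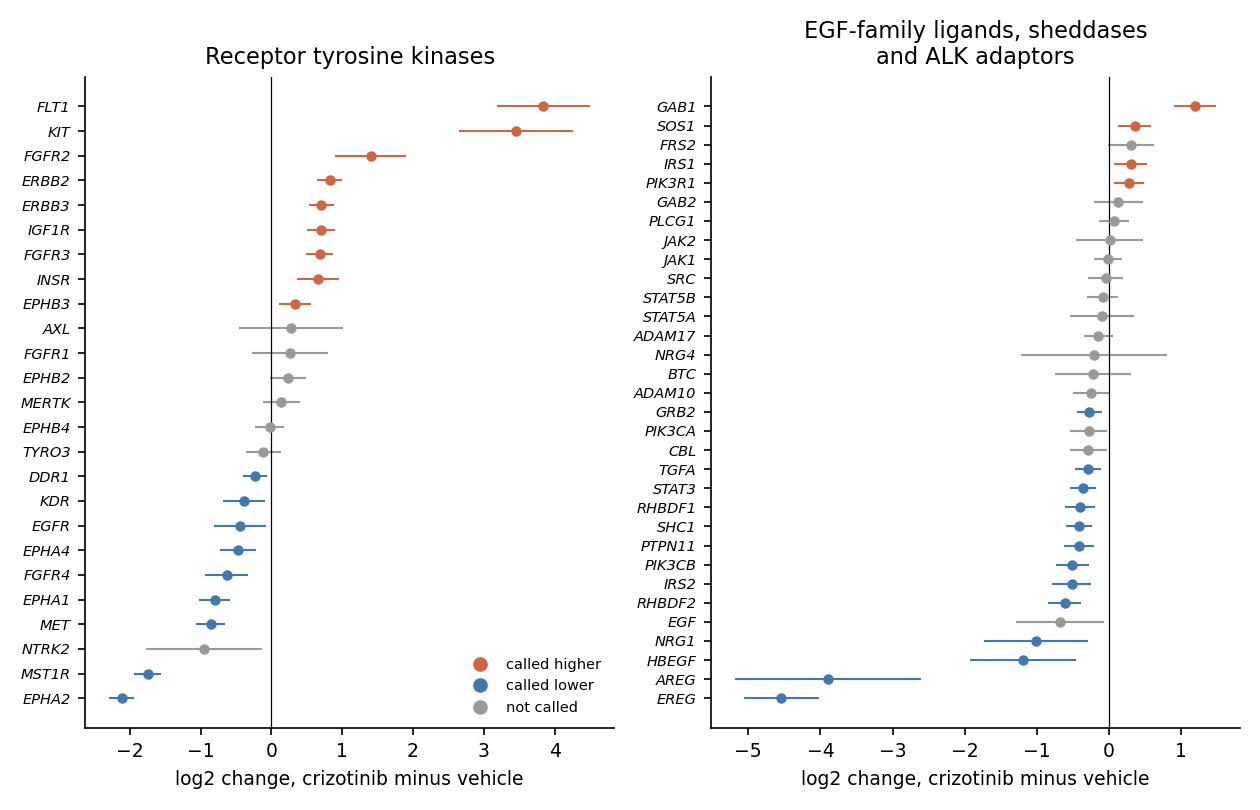
Log2 change (crizotinib minus vehicle) with its 95% confidence interval for each tested receptor tyrosine kinase (left) and each tested EGF-family ligand, sheddase or ALK adaptor (right), coloured by call. KIT and FLT1 stand above 3 with wide intervals, ERBB2, ERBB3, IGF1R and INSR lie between 0.6 and 0.9, and the interval of AREG rests on 1 and 0 reads in crizotinib.

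FOXO and PI3K-responsive genes leaned higher: 17 of 30 were called higher and 8 lower, with a median log2 change of 0.31. PIK3IP1, an inhibitor of the PI3K catalytic subunit, had 59.0 and 59.7 normalised reads in vehicle and 350.4 and 313 in crizotinib (2.46 ± 0.14, limma adjusted p = 8.99e-08). SESN1, a stress-responsive regulator of mTORC1, had 203 and 198 against 381 and 383 (0.93 ± 0.11). The 4 receptors ERBB2, ERBB3, IGF1R and INSR also belong to this list. Other members of the list went the other way. KLF4 had 172 and 208 against 82.6 and 60.5 (-1.41 ± 0.18), and GADD45A had 843 and 927 against 332 and 372 (-1.33 ± 0.10). The pseudokinase gene TRIB2 changed by -0.90 ± 0.09.

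In G1 regulators 13 of 25 were called lower and 5 higher. Beside CCND1, the p21 gene CDKN1A fell, from 2041 and 2084 normalised reads in vehicle to 937 and 916 in crizotinib (-1.15 ± 0.08, limma adjusted p = 5.88e-07). CDKN2C, which encodes the CDK4 and CDK6 inhibitor p18, rose from 192 and 203 to 391 and 345 (0.89 ± 0.12, limma adjusted p = 9.21e-05), and RBL2, the quiescence-associated relative of RB1, changed by 0.53 ± 0.09. The phosphatase gene CDC25A (-0.54 ± 0.10) and E2F7 (-0.59 ± 0.15) were called lower. The remaining called members changed by less than 0.5 on the log2 scale, and several calls were lost in smaller fits: 7 were called lower without crizotinib replicate 1, 6 without crizotinib replicate 2, and 8 with the replicate number as a block, with 2, 2 and 3 called higher.

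Replication and mitosis genes were lower by small amounts. Of 36 tested replication genes, 28 were called lower and 0 higher, with a median log2 change of -0.35, and of 36 mitosis genes the counts were also 28 and 0, with a median of -0.37. No member of either list reached a 2-fold change. MCM10, which helps fire origins, had 617 and 649 normalised reads in vehicle and 376 and 365 in crizotinib (-0.77 ± 0.10, limma adjusted p = 6.41e-05). RRM2, the ribonucleotide reductase subunit made in S phase, had 9279 and 9582 against 5730.5 and 5707 (-0.72 ± 0.08). PLK1, a kinase of mitotic entry, had 1885 and 2019.6 against 1248 and 1185 (-0.68 ± 0.08, limma adjusted p = 5.71e-05), and AURKA had 1712 and 1826 against 1194 and 1127 (-0.61 ± 0.09). None of these overlapped between groups. The proliferation marker MKI67 had 6183 and 5233 against 4015 and 4724 (-0.39 ± 0.10), also apart, but it was not called without crizotinib replicate 1 (-0.27, limma adjusted p = 0.187) or with total-count scaling (-0.26, limma adjusted p = 0.0751). The counts depended on the scaling and on single libraries. With total-count scaling 17 replication and 18 mitosis genes were called lower, without crizotinib replicate 1 it was 14 and 15, and without crizotinib replicate 2 it was 16 replication genes. Both medians stayed below 0 under each scaling tried (-0.23 and -0.25 with total-count scaling).

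Promoters of several lists were searched for motifs known for them, and mitosis and replication genes come first. Mitosis genes are known for the cell cycle homology region (CHR), searched as TTTGAA on both strands of the RefSeq promoters (GRCh38.p14, 250 bases before to 50 after each start). It was present in 21 of 31 mitosis promoters (67.7%), against 9.55% of the 9711 promoters matched to tested genes. The CCAAT box, searched as CCAAT, was in 24 of those 31 (77.4%, against 36.6%). Replication genes are known for E2F sites, searched as TTTGGCGC, TTTCCCGC, TTTGCCGC or TTTCGCGC. At least 1 was in 17 of 32 replication promoters (53.1%, against 5.21%). Stretches upstream of 4 members that were called lower are shown with the matched letters in capitals, to show where the motif lies: PLK1, HMMR (a spindle protein, -0.47 ± 0.08) and MKI67 for CHR, and MCM6 (a subunit of the replicative helicase, -0.37 ± 0.08) for E2F. MCM6 was not called without crizotinib replicate 1 (-0.36, limma adjusted p = 0.0549). The stretches are chr16:23678810-23678888 for PLK1, chr5:163460554-163460631 for HMMR, chr10:128126424-128126520 for MKI67 and chr2:135876472-135876645 for MCM6. PLK1 and HMMR lie on the plus strand, MKI67 and MCM6 on the minus strand, and each is written from 5′ to 3′ along its gene.
PLK1: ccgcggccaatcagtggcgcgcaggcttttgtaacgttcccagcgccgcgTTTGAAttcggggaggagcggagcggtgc
HMMR: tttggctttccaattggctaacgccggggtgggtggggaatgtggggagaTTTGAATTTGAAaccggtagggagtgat
MKI67: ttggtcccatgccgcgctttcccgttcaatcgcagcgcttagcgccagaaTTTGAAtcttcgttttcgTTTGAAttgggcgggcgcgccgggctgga
MCM6: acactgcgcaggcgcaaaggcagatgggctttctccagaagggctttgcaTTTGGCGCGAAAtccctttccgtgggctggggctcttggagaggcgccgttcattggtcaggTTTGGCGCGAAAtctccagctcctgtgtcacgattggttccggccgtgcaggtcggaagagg

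HMMR and MKI67 hold CHR letters at 2 places each, and MCM6 holds 4 E2F matches at 2 places, where matches on both strands overlap. The first match begins 29 bases before the start in PLK1, 28 in HMMR, 47 in MKI67 and 152 in MCM6. For the MAPK output and cholesterol lists, at most 1 promoter held the letters of each motif searched. ETS letters, searched as CCGGAAGT, were in 0 of 18 MAPK output promoters against 8.43% of all matched promoters. The AP-1 site, searched as TGANTCA, was in 1 of those 18 (5.56%, against 4.69%), and the sterol element, searched as TCACNCCAC, in 1 of 18 cholesterol synthesis promoters (5.56%, against 1.12%). Among ER chaperone and unfolded protein response promoters, CCACG, part of the ER stress element, was in 18 of 26 (69.2%, against 49.9%) and CCAAT in 22 of 26 (84.6%, against 36.6%). A match describes letters only, and a missing one concerns this window only.

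Death regulators of the BCL2 family moved both ways, with 6 of 22 called higher and 8 lower, against the background of 22.1% and 24.0%. BMF had 7292 and 6892 normalised reads in vehicle and 15005 and 14395 in crizotinib (1.05 ± 0.08, limma adjusted p = 1.7e-06), and BCL2L11, which encodes BIM, had 643 and 614 against 1200.3 and 1216 (0.94 ± 0.09, limma adjusted p = 5.3e-06). Both are BH3-only activators of death, and both were higher in each crizotinib library. The BH3-only gene PMAIP1 (NOXA) was lower, at 720.0 and 684 against 246 and 283 (-1.41 ± 0.11, limma adjusted p = 1.11e-06), as was its survival partner MCL1, at 44837 and 43281 against 30105 and 30246 (-0.55 ± 0.09, limma adjusted p = 0.000627). BAX (-0.54 ± 0.11) and BID (-0.58 ± 0.09) were called lower. BCL2L1, which encodes BCL-XL, had 1976 and 2144 against 2251 and 2111 and was not called. Without crizotinib replicate 1, and likewise without crizotinib replicate 2, 3 members were called higher, BMF and BCL2L11 among them. The p53 targets were as mixed, with 7 of 23 called higher (4 without crizotinib replicate 1 or 2) and 7 lower. GDF15, a secreted stress cytokine, had 6849 and 7951 against 1667 and 1614 (-2.17 ± 0.09), and TP53INP1, an autophagy and death regulator, had 225 and 218 against 711 and 699 (1.66 ± 0.10).

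Lung lineage genes moved both ways. Of 24 tested lung epithelial genes 9 were called higher and 9 lower. NKX2-1 had 3149 and 3422 normalised reads in vehicle and 7244 and 7336 in crizotinib, more than 2-fold higher and without overlap (1.15 ± 0.08, limma adjusted p = 6.48e-07). SFTA3, its neighbour on the chromosome, had 683 and 712 against 1495 and 1429.9 (1.07 ± 0.09). ABCA3, the lipid pump of lamellar bodies, had 98.4 and 117 against 413 and 415 (1.94 ± 0.13, limma adjusted p = 3.56e-07). LPCAT1, which makes surfactant phosphatidylcholine, had 4549 and 4774 against 12245 and 11524 (1.35 ± 0.08). HOPX, a homeodomain protein of alveolar type 1 cells, had 54.1 and 51.9 against 143 and 124 (1.31 ± 0.17), and SOX2, a transcription factor of the conducting airway, had 1604 and 1665 against 3489 and 3437 (1.08 ± 0.08). SFTPB, as given above, stayed below 10 normalised reads.

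The genes called lower included factors of distal progenitors and of secretory cells. SOX9, found in lung bud tips, had 629 and 614 normalised reads in vehicle and 155 and 154 in crizotinib (-2.0 ± 0.11, limma adjusted p = 5.59e-08). SPDEF, the goblet cell factor, had 634 and 664 against 186 and 185 (-1.80 ± 0.10, limma adjusted p = 1.03e-07). FOXA2 had 215 and 227 against 65.5 and 66.7 (-1.73 ± 0.14), whereas FOXA1 was called higher, at 4091 and 3926 against 5368 and 5413 (0.43 ± 0.08). No library of one group reached the range of the other for these genes. Water channel genes AQP5 (-1.70 ± 0.21) and AQP3 (-1.12 ± 0.08) were called lower. The list's median was 0.17 and turned to -0.03 with quantile normalisation, so it has no direction as a whole.

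Mucins and secreted products of airway epithelium had 9 of 18 called lower and 5 higher, with a median log2 change of -0.53. MUC5B, the main gel-forming mucin of small airways, had 2268 and 1946 normalised reads in vehicle and 296 and 389 in crizotinib (-2.63 ± 0.13, limma adjusted p = 2.75e-08). MUC1, a membrane mucin, had 1719 and 2120.4 against 576 and 576 (-1.73 ± 0.10, limma adjusted p = 1.52e-07). TFF1, a trefoil peptide secreted with mucin, had 746 and 1007 against 101 and 113 (-3.01 ± 0.14, limma adjusted p = 2.42e-08). Each was lower in both crizotinib libraries, as was BPIFA1, an airway surface protein (-3.32 ± 0.23). MUC16, the membrane mucin known as CA125, was higher, with 397 and 279 against 904 and 1507 (1.81 ± 0.21, limma adjusted p = 2.83e-05). CEACAM6, an adhesion protein of many adenocarcinomas, had 8476 and 8726 against 18202 and 16564 (1.01 ± 0.09). Without crizotinib replicate 1, 3 members were called higher.

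**Figure D3:**
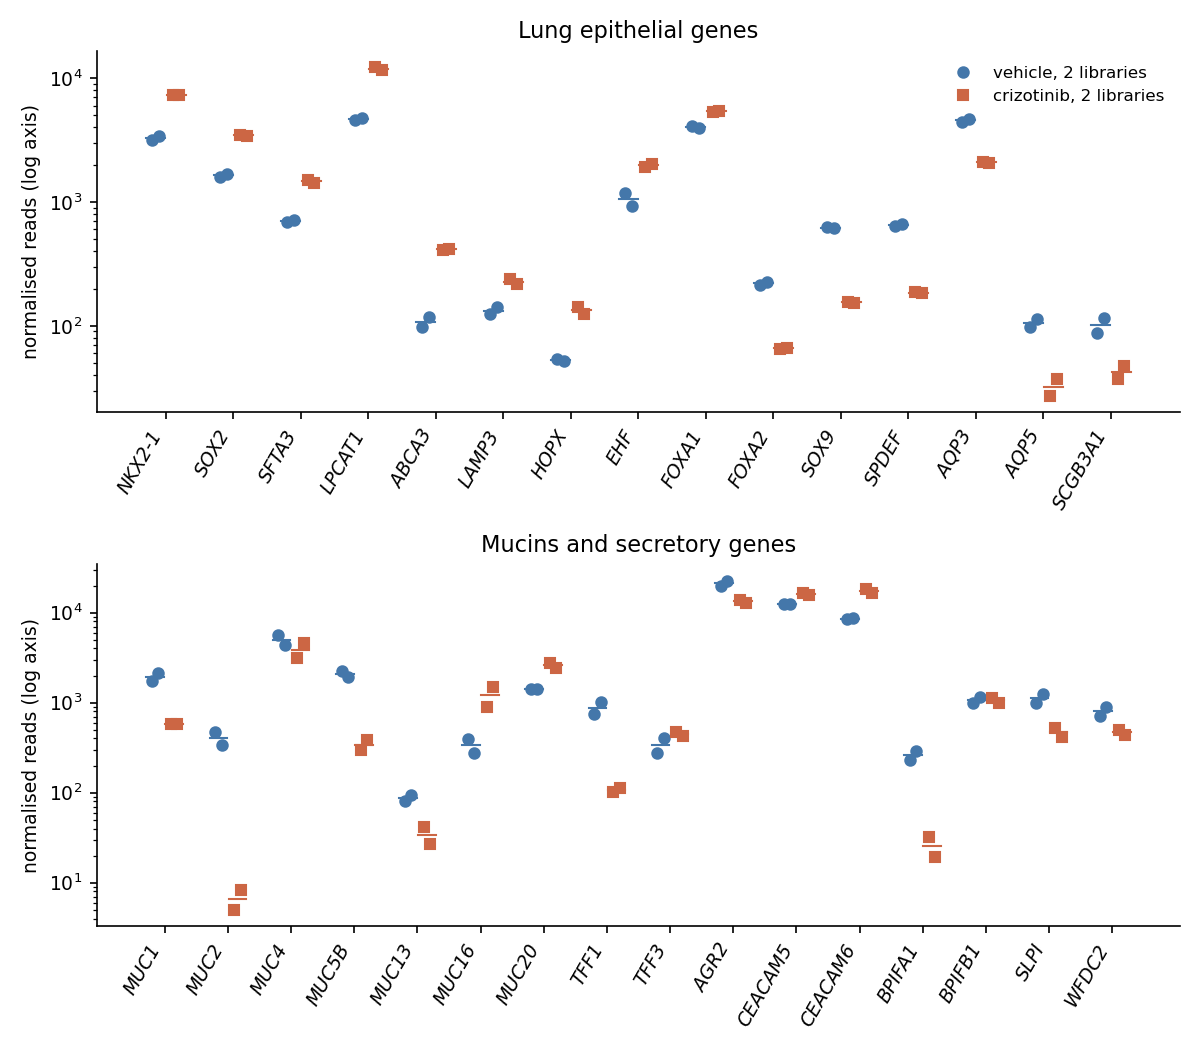
Normalised reads (log axis) of 15 lung epithelial genes (top) and 16 mucin and secretory genes (bottom) in 2 vehicle (circles) and 2 crizotinib (squares) libraries, with a bar at each mean. NKX2-1, SOX2, LPCAT1 and ABCA3 are higher in crizotinib, SOX9, SPDEF and FOXA2 lower, and MUC2, MUC5B and TFF1 fall far below their vehicle values while MUC16 rises.

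Secreted and surface proteases were mostly lower, with 15 of 27 called lower and 6 higher, and a median log2 change of -0.58. PLAU, the urokinase that activates plasminogen, had 2496 and 2609.6 normalised reads in vehicle and 268 and 259.5 in crizotinib (-3.27 ± 0.09, limma adjusted p = 6.14e-10). Its receptor gene PLAUR changed by -1.73 ± 0.13, and MMP10 (stromelysin-2) had 121 and 154 against 13.1 and 13.3 (-3.27 ± 0.22). The kallikrein KLK11 (2.44 ± 0.23) and the membrane protease TMPRSS2, with 64.9 and 80.2 against 225 and 202 (1.55 ± 0.16), were called higher. Cytokine and chemokine genes had 6 of 11 called lower and 1 higher. IL8 (CXCL8), the neutrophil chemokine, had 256 and 206 against 35.2 and 25.6 (-2.89 ± 0.20, limma adjusted p = 4.17e-07), and LIF, an IL-6 family cytokine, had 1124 and 1027 against 170.2 and 179.5 (-2.61 ± 0.10, limma adjusted p = 6.31e-09). The 1 called higher was TNFSF10, the death ligand TRAIL, with 50.2 and 48.9 against 106 and 119 (1.16 ± 0.17, limma adjusted p = 0.000234). With a minimum mean of 50, 3 cytokine genes were called lower.

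Epithelial structure genes had 17 of 30 called lower and 7 higher. DSP, the desmosome linker desmoplakin, had 2065 and 1723 normalised reads in vehicle and 5978 and 6457 in crizotinib (1.72 ± 0.10, limma adjusted p = 8.99e-08). OVOL2, a repressor of mesenchymal genes, changed by 1.36 ± 0.14, while the stress keratin KRT6A changed by -2.60 ± 0.23 and the laminin chain LAMB3 by -0.97 ± 0.09. Among 20 tested mesenchymal genes 5 were called higher and 8 lower, counts that fell to between 2 and 3 higher without vehicle replicate 1, crizotinib replicate 1 or crizotinib replicate 2, and to 1 higher with a minimum mean of 50. FN1, fibronectin, had 799 and 720.2 against 1612 and 1726 (1.14 ± 0.09, limma adjusted p = 1.6e-06), and VIM, vimentin, had 12.8 and 8.81 against 53.4 and 46.2 (2.12 ± 0.30). TNC, tenascin C, fell, with 1124 and 1059.7 against 228 and 252 (-2.18 ± 0.10).

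Genes of lipid and sugar metabolism were called lower in large part. In cholesterol synthesis and uptake 23 of 26 were called lower, 12 by 2-fold or more, and 1 higher, with a median log2 change of -0.93. HMGCS1, which commits carbon to the mevalonate pathway, had 8489 and 7996 normalised reads in vehicle and 2848 and 3144 in crizotinib (-1.46 ± 0.09, limma adjusted p = 1.19e-07). INSIG1, the sterol-induced anchor of SREBP, had 4358 and 4333 against 1517 and 1676 (-1.45 ± 0.08), and FDFT1, squalene synthase, changed by -1.53 ± 0.08. All of these are SREBP2 targets and none overlapped between groups. The sterol desaturase gene listed as SC5DL was the 1 called higher (0.44 ± 0.09).

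Fatty acid synthesis had 13 of 19 called lower and 2 higher (1 without crizotinib replicate 2), with a median of -0.67. SCD, stearoyl-CoA desaturase, had 28845 and 26266 normalised reads in vehicle and 6721 and 8049 in crizotinib (-1.90 ± 0.10, limma adjusted p = 6.81e-08). FASN, fatty acid synthase, had 14640.4 and 14792 against 4927 and 6060.3 (-1.43 ± 0.10), and the desaturase gene FADS2 had 6065 and 6386 against 1695 and 1769 (-1.84 ± 0.08). These 3 were lower in both crizotinib libraries. SCD5, a second stearoyl-CoA desaturase, was called higher (0.62 ± 0.09).

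Glycolysis and hypoxia genes had 26 of 30 called lower, 13 by 2-fold or more, and 1 higher, with a median log2 change of -0.85. LDHA, lactate dehydrogenase A, had 12017 and 13082 normalised reads in vehicle and 4008 and 3938 in crizotinib (-1.66 ± 0.08, limma adjusted p = 3.86e-08). SLC2A1, the glucose transporter GLUT1, had 6656 and 6307 against 2394 and 2277 (-1.47 ± 0.08, limma adjusted p = 7.47e-08). SLC16A3, the lactate exporter MCT4, had 7157 and 7617 against 2435 and 2347 (-1.63 ± 0.08, limma adjusted p = 3.71e-08). Transcripts for glucose uptake, lactate production and lactate export were thus each lower in both crizotinib libraries. VEGFA, the hypoxia-induced angiogenic factor, had 2208 and 2216 against 988 and 893 (-1.23 ± 0.09). BNIP3, a mitophagy receptor and also a FOXO target, was the 1 called higher, with 309 and 316 against 518 and 468 (0.65 ± 0.10, limma adjusted p = 0.000377).

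Amino acid supply genes under ATF4 control had 35 of 45 called lower, 11 by 2-fold or more, and 0 higher, with a median of -0.55. CHAC1, which degrades glutathione, had 529 and 679 normalised reads in vehicle and 92.6 and 84.1 in crizotinib (-2.75 ± 0.14, limma adjusted p = 3.96e-08). SLC7A11, the cystine importer, had 6112 and 4599 against 742 and 892 (-2.70 ± 0.13, limma adjusted p = 2.4e-08), and TRIB3, a pseudokinase that restrains ATF4, had 1158 and 1312 against 409.8 and 445 (-1.53 ± 0.10). ASNS, asparagine synthetase, had 2054 and 2329.8 against 1099.6 and 1040.1 (-1.03 ± 0.09). The groups were apart in each. ATF4 itself, which is regulated mainly through its translation, had 7939 and 9432 against 7999 and 7162 and was not called (-0.19 ± 0.10, limma adjusted p = 0.137), though it was without vehicle replicate 1 (-0.32, limma adjusted p = 0.0108). The composite element read by ATF4 with CEBP proteins, searched as TGATGNAA on both strands, was in 5 of 29 promoters of the list (17.2%) against 1.59% of all matched promoters. It is shown in capitals for ASNS (chr7:97872419-97872526, minus strand) and CHAC1 (chr15:40953221-40953319, plus strand), which were among the larger falls, each from 5′ to 3′ along the gene.
ASNS: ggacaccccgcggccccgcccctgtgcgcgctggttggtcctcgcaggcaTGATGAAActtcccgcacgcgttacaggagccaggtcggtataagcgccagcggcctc
CHAC1: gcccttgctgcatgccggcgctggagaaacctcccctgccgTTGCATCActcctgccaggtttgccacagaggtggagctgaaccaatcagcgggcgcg

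In ASNS the letters begin 68 bases before the start, and in CHAC1 they begin 209 bases before it, on the other strand. Among ER chaperones and unfolded protein response genes 20 of 32 were called lower and 2 higher, with a median of -0.38. CREB3L1, a membrane-bound factor of secretory cells, changed by -1.47 ± 0.09, EDEM1, which sorts misfolded glycoproteins, by -1.39 ± 0.09, and MANF, an ER stress-induced secreted protein, by -0.95 ± 0.11. Of 20 heat shock genes 14 were called lower and 1 higher, with a median of -0.37, and BAG3 changed by -0.74 ± 0.08 and DNAJB1 by -0.64 ± 0.08. Ribosome biogenesis had 28 of 39 called lower and 1 higher, with a median of -0.32, LYAR (-1.01 ± 0.11), UTP15 (-0.75 ± 0.11) and DDX21 (-0.67 ± 0.10) among them. Calls in these 3 lists depended on the libraries. Without crizotinib replicate 2 the members called lower were 12 for the ER list, 9 for heat shock and 15 for ribosome biogenesis, and without crizotinib replicate 1 they were 9 for heat shock and 16 for ribosome biogenesis. With quantile normalisation they were 9 for heat shock and 17 for ribosome biogenesis, and with total-count scaling 16 for ribosome biogenesis.

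**Figure D4:**
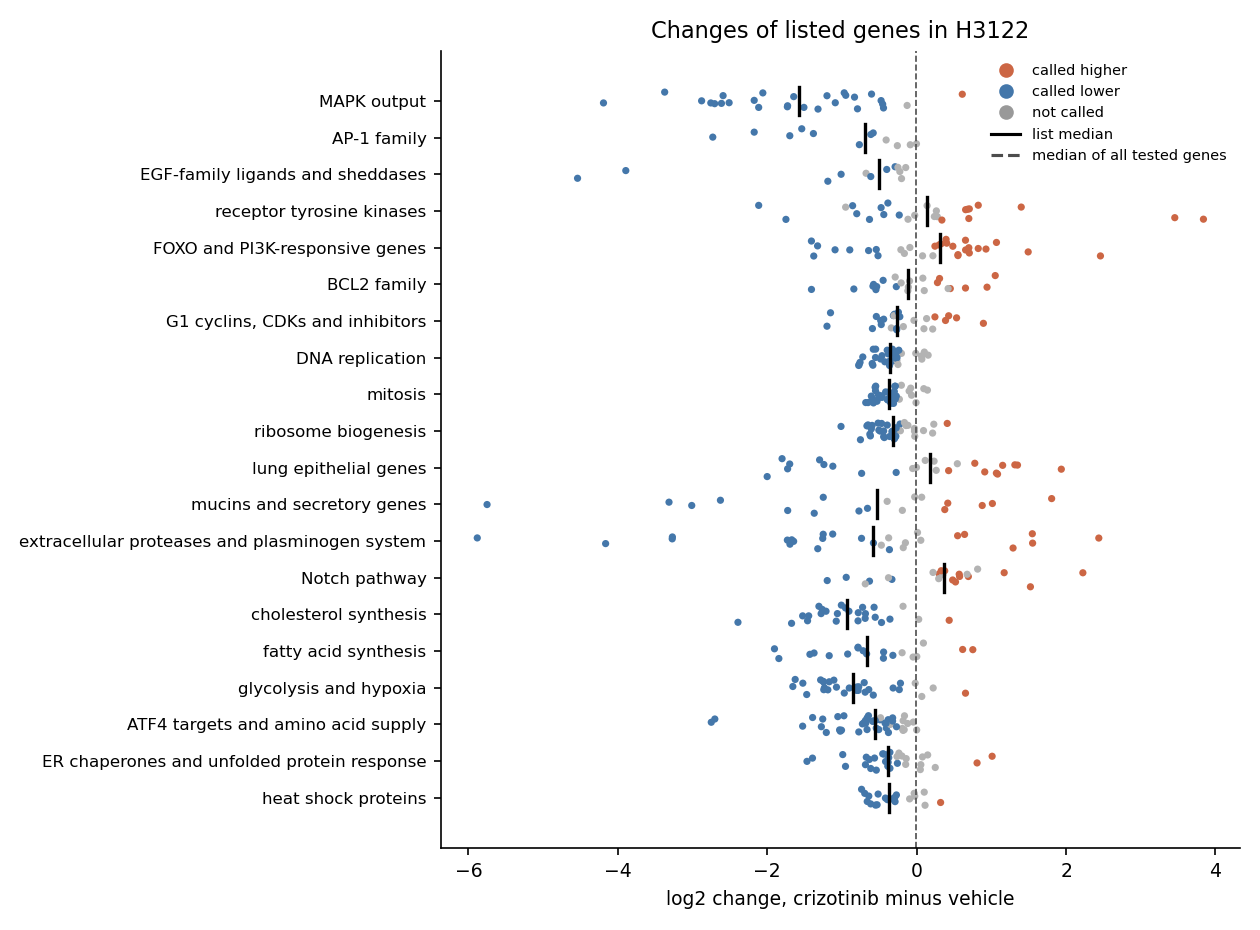
Log2 change (crizotinib minus vehicle) of each tested member of 20 gene lists, coloured by call, with the list's median as a vertical bar and the median of all tested genes as a dashed line. MAPK output, cholesterol synthesis and glycolysis and hypoxia have medians of -1.58, -0.93 and -0.85, whereas replication and mitosis genes lie within 1 log2 unit of 0.

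Targets of the aryl hydrocarbon receptor moved both ways: the list, drug transporters included, had 8 of 19 called higher and 6 lower. CYP1A1, the xenobiotic oxidase that reports on this receptor, had 1555 and 1835 normalised reads in vehicle and 9954 and 8678 in crizotinib (2.46 ± 0.10, limma adjusted p = 9.13e-09). AHRR, its repressor, had 138 and 163 against 430.0 and 379 (1.42 ± 0.13), and CYP2S1 changed by 1.46 ± 0.14. CYP1A2, the neighbour and relative of CYP1A1, had 0.98 and 1.96 in vehicle, within 3 reads, and 12.1 and 26.7 in crizotinib. The receptor gene AHR itself (-0.54 ± 0.10) and the target TIPARP (-0.63 ± 0.09) were called lower, as was NQO1, which NRF2 also controls (-0.82 ± 0.09).

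In the Notch pathway 11 of 22 were called higher and 4 lower, with a median log2 change of 0.36. The ligand DLL1 had 27.5 and 38.2 normalised reads in vehicle and 146 and 165 in crizotinib (2.22 ± 0.20, limma adjusted p = 4.37e-06), and HEYL, a target, changed by 1.52 ± 0.31. Other targets were lower, NRARP with 207 and 208 against 86.6 and 93.3 (-1.20 ± 0.14, limma adjusted p = 3.31e-05) and HES1 with 853 and 904 against 440.0 and 473 (-0.94 ± 0.09, limma adjusted p = 1.03e-05), as was the ligand JAG1 (-0.63 ± 0.10). Without crizotinib replicate 2, 7 of the list were called higher. Of 20 Wnt pathway genes 6 were called in each direction, against the background of 22.1% higher and 24.0% lower. AXIN2, the feedback target of β-catenin, had 11.8 and 15.7 against 65.5 and 50.3 (2.0 ± 0.28, limma adjusted p = 0.00013), and LEF1, its DNA-binding partner, changed by 0.77 ± 0.17. CTNNB1, which encodes β-catenin, was lower (-0.53 ± 0.08), and WNT7A had 22.6 and 29.4 in vehicle and 0 and 0 in crizotinib. Interferon-stimulated genes had 10 of 29 called higher and 5 lower. MX1 had 14.8 and 13.7 against 49.3 and 52.3 (1.77 ± 0.26, limma adjusted p = 0.000201), and IFIT2 changed by 1.23 ± 0.20. Of the lower calls in that list, 3 were left without crizotinib replicate 1 and 0 without crizotinib replicate 2, so they rest on those libraries.

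Most of the largest rises started from low vehicle values. TNFRSF19 (TROY), a TNF-family receptor of stem and progenitor cells, had 31.5 and 22.5 normalised reads in vehicle and 552 and 555 in crizotinib (4.33 ± 0.17, limma adjusted p = 6.67e-09). BMP8A, a bone morphogenetic protein, had 49.2 and 79.3 against 1258 and 1160.2 (4.25 ± 0.18), and RCSD1, a regulator of actin capping protein, had 1.97 and 1.96 against 126 and 124, its vehicle values being 2 reads each. NPTX1, a neuronal pentraxin, rose from a higher level, 536 and 480.4 to 4369 and 4519 (3.13 ± 0.09, limma adjusted p = 7.34e-10). IGFBP5, which binds insulin-like growth factors, had 34.4 and 29.4 against 319 and 278 (3.19 ± 0.17). Of 4 tested endothelial markers 2 were called higher and 2 lower. VWF and CDH5 were higher, with 36.4 and 37.2 against 307 and 276 for VWF (2.95 ± 0.15) and 149 and 122 against 423 and 416 for CDH5 (1.63 ± 0.13). KDR had 171 and 165 against 128 and 129 (-0.39 ± 0.13) and ESAM 14.8 and 16.6 against 7.05 and 6.15 (-1.14 ± 0.39), both called lower. ESAM was not called without vehicle replicate 1 (-1.22, limma adjusted p = 0.059), vehicle replicate 2 (-1.05, limma adjusted p = 0.12), crizotinib replicate 1 (-1.22, limma adjusted p = 0.0536) or crizotinib replicate 2 (-1.05, limma adjusted p = 0.0952). KDR was not called without vehicle replicate 1 (-0.36, limma adjusted p = 0.0825), crizotinib replicate 1 (-0.38, limma adjusted p = 0.152) or crizotinib replicate 2 (-0.39, limma adjusted p = 0.137). The endothelial genes PECAM1, TIE1 and EMCN were at 0 in all 4 libraries.

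The largest falls included genes of secretion, inflammation and signalling. S100A9, a calprotectin subunit, had 292 and 289.6 normalised reads in vehicle and 2.01 and 5.13 in crizotinib (-6.09 ± 0.31, limma adjusted p = 4.32e-08), the latter being 2 and 5 reads. FAIM2, an inhibitor of FAS-induced death, had 540.0 and 541 against 5.03 and 19.5 (-5.61 ± 0.40), a change of -4.72 or -6.49 without crizotinib replicate 1 or 2. FGF19, a ligand of FGFR4 with KLB, had 219 and 215 against 12.1 and 14.4 (-3.94 ± 0.20). Each went from over 200 normalised reads to below 20. LCK, a SRC-family kinase best known from T cells, had 432 and 482 against 38.3 and 27.7 (-3.77 ± 0.17), and LAPTM5, a lysosomal protein best known from lymphocytes, had 583 and 642 against 17.1 and 20.5 (-4.96 ± 0.16). The T cell genes CD3D, CD3E and CD2 had at most 1 read in any library. BPIFB2, a lipid-binding secreted protein, had 643 and 789 against 50.3 and 59.5 (-3.68 ± 0.14), and SMOC1, a matricellular BMP regulator, had 1138 and 1185 against 92.6 and 95.4 (-3.61 ± 0.11).

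The H3122 change was then set against the mean change of 3 BRAF-mutant melanoma lines given the BRAF inhibitor vemurafenib for 48 h, A375 at 0.1 µM (3 libraries per group) and Colo800 and UACC62 at 1 µM (2 libraries per group each), each against its own vehicle. Line, tissue, driver, drug, dose and, for A375, medium differ together and cannot be told apart. Of 11815 genes tested for the difference by limma, 3978 (33.7%) passed, with the H3122 change above the melanoma mean in 2284 (19.3%) and below it in 1694 (14.3%). The lists differed in where H3122 stood apart. For mitosis the median log2 change was -0.37 in H3122, -2.83 in A375, -3.18 in Colo800 and -5.54 in UACC62, and 36 of 36 members passed with the H3122 change above. Replication genes had -0.35, -2.19, -2.46 and -2.20, and again 36 of 36 passed above. In ribosome biogenesis the medians were -0.32, -1.05, -0.81 and -1.10, and 31 of 39 passed above. MAPK output had -1.58, -2.29, -3.74 and -3.04, with 19 of 26 above and 3 below. In glycolysis and hypoxia the medians were closer, at -0.80, -0.72, -1.12 and -1.0, with 9 of 28 above and 2 below, and in cholesterol synthesis they were -0.91, -0.56, -1.45 and -1.19, with 5 of 25 above and 3 below. Medians over all genes lay between -0.03 and -0.01 in each line.

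**Figure D5:**
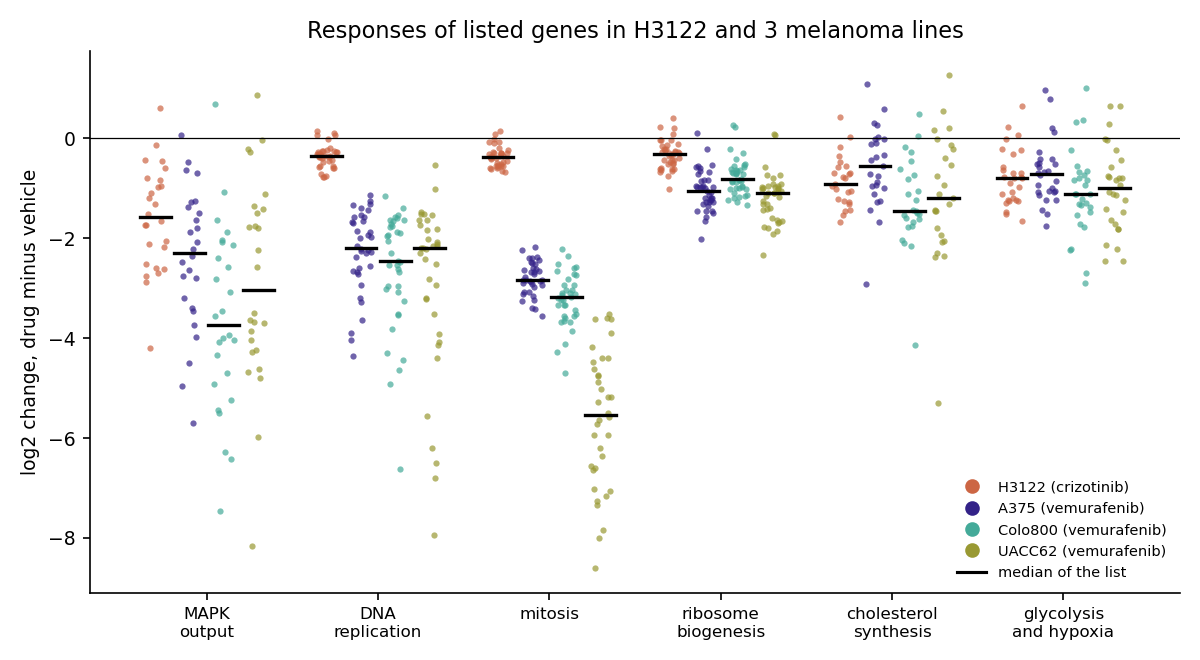
Log2 change, drug minus vehicle within each line, of every member of 6 gene lists tested in all 4 lines, with a bar at each median. Mitosis and replication genes lie near 0 in H3122 (medians -0.37 and -0.35) and below -1 in nearly every melanoma case, while cholesterol and glycolysis genes overlap between the lines.

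Among single genes, MKI67 changed by -0.39 in H3122 and by -3.24, -4.28 and -8.60 in A375, Colo800 and UACC62. Its difference from the melanoma mean was 4.99 ± 0.35 (limma adjusted p = 3.47e-08). With a pseudocount of 5 that difference was 4.55, so its size depended in part on the pseudocount. MYC was higher in H3122 and lower in each melanoma line (-2.09, -3.93 and -3.50 in the same order), a difference of 3.78 ± 0.43 (limma adjusted p = 5.94e-06). CCND1 had -3.40, -4.34 and -1.12 in the melanoma lines, a difference of 1.75 ± 0.19 (limma adjusted p = 3.05e-06), and its UACC62 change was no larger than that in H3122. For FOSL1 the melanoma changes were -3.30, -3.65 and -2.55 and the difference, 0.44 ± 0.19, did not pass (limma adjusted p = 0.0978). BMF was higher in every line, with 3.34, 1.94 and 5.46 in the melanoma lines, and less in H3122 (-2.53 ± 0.21, limma adjusted p = 1.94e-07). In all, 515 of the 11815 genes passed both tests with a sign opposite to that in each melanoma line, 246 of them higher and 269 lower in H3122. Only the sign was used for each melanoma line, and the change within a line was not tested for this count. ABLIM1, an actin-binding LIM protein, changed by 2.11 in H3122 and by -0.23, -0.54 and -1.34 in melanoma (2.82 ± 0.22, limma adjusted p = 9.98e-08). Its A375 change was small for its SE (-0.23 ± 0.16). The stress factor ATF3 changed by -1.70 in H3122 and by 3.01, 2.25 and 3.20 in melanoma (-4.52 ± 0.42, limma adjusted p = 6.56e-07). The mucin gene MUC1 changed by -1.73 and by 1.52, 0.46 and 0.54 (-2.57 ± 0.23, limma adjusted p = 3.99e-07). Its mean did not reach 50 normalised reads in every melanoma line.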

How the data were processed

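The 2 vehicle and 2 crizotinib libraries of H3122, and 14 melanoma libraries for 1 comparison, were analysed, grouped by the sample titles. The deposited values are a signal per gene: read counts that the authors divided by a library's size factor. Tools named in the submitters' processing notes are DESeq 1.18.0, HTSeq 0.5.4 and STAR 2.3.0e, and the builds are mm9 and hg19. The role of each is not given. Whole reads were recovered from the steps of the values, and 100% came out whole within 0.1. Differences within replicate pairs exceeded counting error (chi-square per degree of freedom 7.52 and 3.34), and each library was treated as 1 replicate. That excess does not tell whether the libraries came from separate cultures. The kit (TruSeq RNA v2, per the labels' protocols) does not mark strand, so overlapping or antisense genes and near-identical copies are uncertain.

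The fit used limma 3.58.1 (R 4.3.3, mean-variance trend) on log2(value + 1) for genes with a mean of at least 10, two-sided, and the threshold was a Benjamini-Hochberg adjusted p under 0.05. That scale understates the change of low genes. In a test on simulated data for this comparison (13957 genes, 200 changed), 97% of 2-fold and 100% of 4-fold changes were found. Of the unchanged genes, 14 were called. The changed genes all had a mean of at least 50, and the spread between libraries was assumed. Far fewer genes changed than were called in the data, so the test does not cover lower genes or so broad a response. The change in H3122 minus the mean melanoma change was fitted over the 4 tables, which were normalised separately, each change within its own table. Alternatives were quantile and total-count scaling, a minimum mean of 50 or none, a pseudocount of 0.5 or 5, the replicate number as a block, each library left out, and edgeR 4.0.16 and DESeq2 1.42.0 on the recovered reads, which called 6471 and 4554 genes. When a library was left out, the lone one of its arm was assumed to vary like the others.

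Lists (47, with 1130 distinct genes) were written from textbook knowledge, and the lists and genes were chosen with earlier results of these data known. They are described by counts and medians. Named genes are taken from the 20 largest changes per direction with a mean of at least 50 and no overlap, up to 4 members per list and direction with the smallest adjusted p, all members of 9 signalling, cell cycle, death, lung and mucin lists, and 8 genes per direction with opposite changes in melanoma. Fewer are named than the rule takes, partly by how well the calls held, and some are not reported here. ASNS, ATF4, HMMR, MCM6 and the keratins KRT7, KRT8 and KRT18 were named outside it, after their values were seen. FAM150A, IL8 and SC5DL are the files' symbols.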

Additional observations from a re-analysis of the deposited data

Results flagged for a closer look

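Of the 515 genes with a change in H3122 opposite in sign to that in each melanoma line and past both tests, the 4 whose differences are described above are given here. MYC was higher with drug in H3122 and lower in A375, Colo800 and UACC62, a difference of 3.78 ± 0.43 on the log2 scale (limma adjusted p = 5.94e-06). ABLIM1 had the same signs, though its A375 change was small for its SE (-0.23 ± 0.16), with a difference of 2.82 ± 0.22 (limma adjusted p = 9.98e-08). ATF3 was lower in H3122 and higher in each melanoma line, a difference of -4.52 ± 0.42 (limma adjusted p = 6.56e-07). For MUC1 the difference was -2.57 ± 0.23 (limma adjusted p = 3.99e-07), with melanoma changes that were small in Colo800 and UACC62. Its mean did not reach 50 normalised reads in every melanoma line, so it was not tested with that minimum. Line, drug and dose cannot be told apart in these differences.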

How the results depend on the processing

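Limits: 2 libraries per group, 1 line, 1 dose and 1 time, with precision set by the depth given above and by the spread of a single pair. The 6436 calls numbered 4331 to 6913 when 1 library was left out, 6427 and 6476 with pseudocounts of 0.5 and 5, 5017 without a filter, 5717 with a filter at 50, 6004 with quantile and 6454 with total-count scaling, 6471 with edgeR and 4554 with DESeq2. DESeq2 called 2039 higher against 3086, and the 3350 lower calls were 2214 with total-count scaling and 2175 without crizotinib replicate 2. With the replicate block, 5381 genes were called, and the count for the difference from melanoma was 4212. Same-numbered libraries had a weak tendency to deviate in opposite directions (correlation -0.21 over 13959 genes), and a crossed replicate block, chosen after seeing the data, called 8522. For the difference, 3978 became 5981 against Colo800 and UACC62 only, and 2864 to 3063 without 1 H3122 library. Of 190 called genes named in the text, all kept their sign and 181 stayed past the threshold under each alternative that tested them, the blocks aside, and 16 were not tested with a filter at 50. The other 9 were EGFR, EML4, ESAM, HBEGF, KDR, MCM6, MKI67, NRG1 and E2F7. Of 94 list counts, 24 moved by more than 1.5 times without crizotinib replicate 1, 22 without crizotinib replicate 2 and 19 with total-count scaling. The uncalled change of FAM150A was -0.16, and -0.36 to 0.043 without 1 library. The uncalled difference of FOSL1 passed with a pseudocount of 5 (0.54, limma adjusted p = 0.0391).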

Other observations

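Other gene groups were less uniform. Growth factors and their binding proteins had 14 of 32 called lower and 6 higher. IGFBP3, a carrier of insulin-like growth factors, had 1086 and 1058 normalised reads in the vehicle libraries and 342 and 257 in the crizotinib libraries (-1.85 ± 0.13, limma adjusted p = 3.96e-07), and GAS6, the ligand of AXL and MERTK, had 44.3 and 48.9 against 104 and 98.5 (1.10 ± 0.18, limma adjusted p = 0.000411). Both were separated between groups, in opposite directions. YAP and TEAD targets had 7 of 18 called lower and 2 higher (4 without vehicle replicate 1 and 1 without crizotinib replicate 2). Among them CTGF, the matricellular gene also called CCN2, had 187 and 185 against 60.4 and 50.3 (-1.74 ± 0.16), and NT5E, the ectonucleotidase CD73, had 6297 and 5900.2 against 1807 and 1873 (-1.73 ± 0.08). WWTR1, the paralogue of YAP, changed by -1.39 ± 0.11. Squamous markers had 6 of 8 called lower, KRT6B (-2.27 ± 0.30) and SPRR3 (-3.24 ± 0.33) among them, while SOX2, as given above, was the 1 called higher. With a minimum mean of 50, 2 squamous markers were called lower.

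Of 6 tested ciliated cell markers, 4 were called higher and 1 lower, and FOXJ1, the factor that starts the ciliated program, was called higher only with total-count scaling (0.36, limma adjusted p = 0.0262). RSPH1, a radial spoke protein, had 19.7 and 27.4 normalised reads in vehicle and 52.4 and 52.3 in crizotinib (1.14 ± 0.25, limma adjusted p = 0.00305). Inhibitors of DNA binding split, with ID4 at 91.5 and 90.0 against 205 and 218 (1.21 ± 0.14) and ID1 at 894 and 1147 against 626 and 556 (-0.78 ± 0.12). The list of TGF-beta, BMP and ID genes had 6 of 20 called higher and 2 lower, and fewer were called higher without crizotinib replicate 2. Of 34 lysosome and autophagy genes, 8 were called higher and 12 lower, and without crizotinib replicate 2 the lower calls were 6. ATG9B, a lipid scramblase of autophagosomes, had 5.90 and 6.85 against 57.4 and 46.2 (2.83 ± 0.31, limma adjusted p = 2.18e-05), and cathepsin F (CTSF) had 19.7 and 23.5 against 98.7 and 93.3 (2.11 ± 0.21). Replication-dependent histone genes had 4 of 8 called higher and 0 lower, HIST1H2AC (0.71 ± 0.15) and HIST1H2BD (0.64 ± 0.13) among them. These calls depended in part on vehicle replicate 1. Only 8 of the 16 listed histone genes were tested, and 4 were at 0 in all libraries, so the counts do not describe histone transcripts as a whole. Oxidative phosphorylation had 17 of 38 called lower and 0 higher, which became 11 without crizotinib replicate 1 and 9 without crizotinib replicate 2. DNA repair genes had 9 of 26 called lower, and without crizotinib replicate 1 that number was 2.

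Of the genes called in H3122 and tested in all 4 lines, 5347 in number, 2185 passed the test of the difference from the melanoma mean. Over all 11815 genes tested for the difference, 3978 (33.7%) passed. The H3122 change enters both tests, so they are not independent.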
